A study of Mus musculus with 4 samples.

Results

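SOX proteins are transcription factors that bind DNA through an HMG box, a domain named after the high mobility group proteins. Their levels were followed in neural stem cells and embryonic stem (ES) cells for 8 genes chosen by gene symbol: Sox1, Sox2, Sox3, Sox4, Sox9, Sox10, Sox11 and Sox21. Of these 8, 6 had probe sets paired with that single gene, out of 8251 named genes in all, and no probe set was paired with Sox9 or Sox21 alone. The 6 genes were read by 12 probe sets, of which 7 had a plain _at name, 2 were of the _r_at class, 2 of the _i_at class and 1 of the _f_at class. The _r_at and _i_at suffixes mark probe sets for which the usual rules of probe choice could not all be met, and _f_at marks probes that can also match related transcripts.

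SoxB1 proteins, encoded by Sox1, Sox2 and Sox3, hold neural progenitors in their stem cell state, and Sox2 also works with the POU protein Oct4 in pluripotent cells. The SoxC proteins of Sox4 and Sox11 act later, in cells that leave the progenitor state and become neurons. Sox10, a SoxE gene, marks neural crest and cells of the oligodendrocyte lineage.

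The neurosphere group was 1 array of neural stem cell clusters grown with FGF2 from the telencephalon of E13.5 mouse embryos, and its labels list astrocytes, glia and oligodendrocytes as contaminating cells. The embryoid body group was 2 arrays of R1 cells, an established ES cell line from the inner cell mass, kept unattached for 48 hours. One of them is titled aggregation and the other suspension, and both carry a single sample identifier. The adherent group was 1 array of R1 cells on gelatin, and all 3 R1 cultures were kept in DMEM with LIF, a cytokine that holds ES cells undifferentiated, and beta-mercaptoethanol. All RNA was hybridised to Affymetrix MG_U74Av2 arrays, and the strain, sex and number of embryos behind the neurospheres are not stated in the sources used.

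Levels are MAS5 signal intensity per probe set with all arrays brought to a common trimmed mean of 500. Nothing says that the 2 embryoid body arrays came from separate cultures, so p-values measure only the spread between them, which may be technical. The neurosphere and adherent arrays had no replicates. The scaled 10th percentile was 33.8 in neurospheres, 29.5 and 33.7 in embryoid bodies and 17.4 in adherent cells, and signals near these values were not separated from background. All 10 ES cell markers fell in neurospheres, with a summed signal of 1969.5 there against 63738 to 74817 on the R1 arrays. Over all 8031 probe sets tested, 11.6% fell and 8.09% rose in neurospheres. Of 8 neural progenitor markers on the array, 7 were tested, 4 rose in neurospheres and 0 fell, and their summed signal was 52098 there against 772 to 1304.5 on the R1 arrays. Fabp7 gave 41867 of that sum, and without it the sums were 10231 in neurospheres and 757 to 1276 on the R1 arrays. Testing needed a signal at or above the median of at least 1 array. Of the markers that rose, Fabp7, Hes5 and Ptprz1 reached it on the neurosphere array only, where they were high. Msi1 and Vim, also progenitor markers, lay within their R1 range. Pax6, a forebrain progenitor factor, stayed below the median of every array.

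The RefSeq promoter table (build GRCm38.p6) held entries for Sox1, Sox2, Sox4 and Sox11 among the genes with probe sets. The 250 bases before each start are shown because these are the control regions nearest to the genes whose levels follow, 2 of the SoxB1 class and 2 of the SoxC class. Capitals mark matches, on either strand, to CCAAT, to the GC box GGGCGG or to the SOX core ACAAAG or ACAATG.
Sox1, chr8:12395269-12395518, plus strand: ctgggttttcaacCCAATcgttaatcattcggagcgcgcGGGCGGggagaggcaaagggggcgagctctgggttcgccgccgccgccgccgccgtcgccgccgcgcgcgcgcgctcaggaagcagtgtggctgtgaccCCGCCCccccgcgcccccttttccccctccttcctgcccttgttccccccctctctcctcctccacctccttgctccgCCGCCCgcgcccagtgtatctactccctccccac
Sox2, chr3:34649745-34649994, plus strand: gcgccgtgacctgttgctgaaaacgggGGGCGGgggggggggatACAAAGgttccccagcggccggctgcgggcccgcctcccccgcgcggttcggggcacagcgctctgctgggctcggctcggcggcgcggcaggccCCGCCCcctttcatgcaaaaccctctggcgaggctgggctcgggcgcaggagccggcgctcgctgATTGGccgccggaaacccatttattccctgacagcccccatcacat
Sox4, chr13:28953700-28953949, minus strand: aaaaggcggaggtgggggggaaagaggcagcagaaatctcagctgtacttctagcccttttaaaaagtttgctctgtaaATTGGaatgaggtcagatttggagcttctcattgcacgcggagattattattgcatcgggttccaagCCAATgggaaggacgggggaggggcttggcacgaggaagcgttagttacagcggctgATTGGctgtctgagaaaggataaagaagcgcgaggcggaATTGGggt
Sox11, chr12:27342719-27342968, minus strand: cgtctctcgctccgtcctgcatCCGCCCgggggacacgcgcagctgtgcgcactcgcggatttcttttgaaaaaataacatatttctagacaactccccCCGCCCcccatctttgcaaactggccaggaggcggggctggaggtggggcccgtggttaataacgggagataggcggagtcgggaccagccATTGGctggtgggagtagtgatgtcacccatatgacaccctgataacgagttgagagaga

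The 4 windows differed in composition and in these short matches. G and C made up 71.2% of the Sox1 window and 72.0% of the Sox2 window, against 58.0% for Sox11 and 50.8% for Sox4, with a median of 52.4% over 32851 windows of the same length. The Sox1, Sox2, Sox4 and Sox11 windows held 29, 27, 11 and 17 CpG dinucleotides, where the median window held 6. Only the Sox2 window held a SOX core, 206 bases before its start, and 25.2% of all windows held at least 1. CCAAT occurred 4 times in the Sox4 window and once in each of the others, and 33.8% of all windows held it. The GC box occurred 3 times for Sox1, 2 times each for Sox2 and Sox11 and 0 times for Sox4, against 32.7% of all windows with at least 1. The TATA box TATAAA and the POU octamer ATGCAAAT, present in 12.4% and 1.60% of all windows, had no match in these 4. No match overlapped another, and such letter matches do not show binding.

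Across the arrays, Sox3, Sox4, Sox11 and Sox10 rose in neurospheres relative to R1 cells, and Sox1 and Sox2 did not pass the test. The Sox10 call, on 1 probe set, ended in 9 of 13 alternative fits. Of the 12 probe sets, 10 reached the median of at least 1 array and were tested, and the other 2 (1 of Sox3 and 1 of Sox10) were not. Of these 10, 8 rose and 0 fell in limma's test at an adjusted p under 0.05, while 8.09% of the 8031 probe sets tested rose, 11.6% fell and 19.7% did either. Sox3 on 103301_i_at and 92264_at and Sox11 on 93669_f_at reached the median on the neurosphere array only, where they were high. Without this filter, 6 SOX probe sets rose and 0 fell, against 567 and 668 of all 12422. With each array scaled to its median, the split over all probe sets was 542 higher and 1371 lower, against 650 higher and 935 lower with the trimmed mean, and the median difference of all tested probe sets moved to -0.13 on the log2 scale, against 0.10. The neurosphere signal lay above all 3 R1 arrays for 9 of the 12 SOX probe sets, as it did for 34.9% of all 12422, and below them for 1 (Sox2), as it did for 25.3%. In whole cultures, more cells that express a gene and more RNA per cell cannot be told apart.

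**Figure D1:**
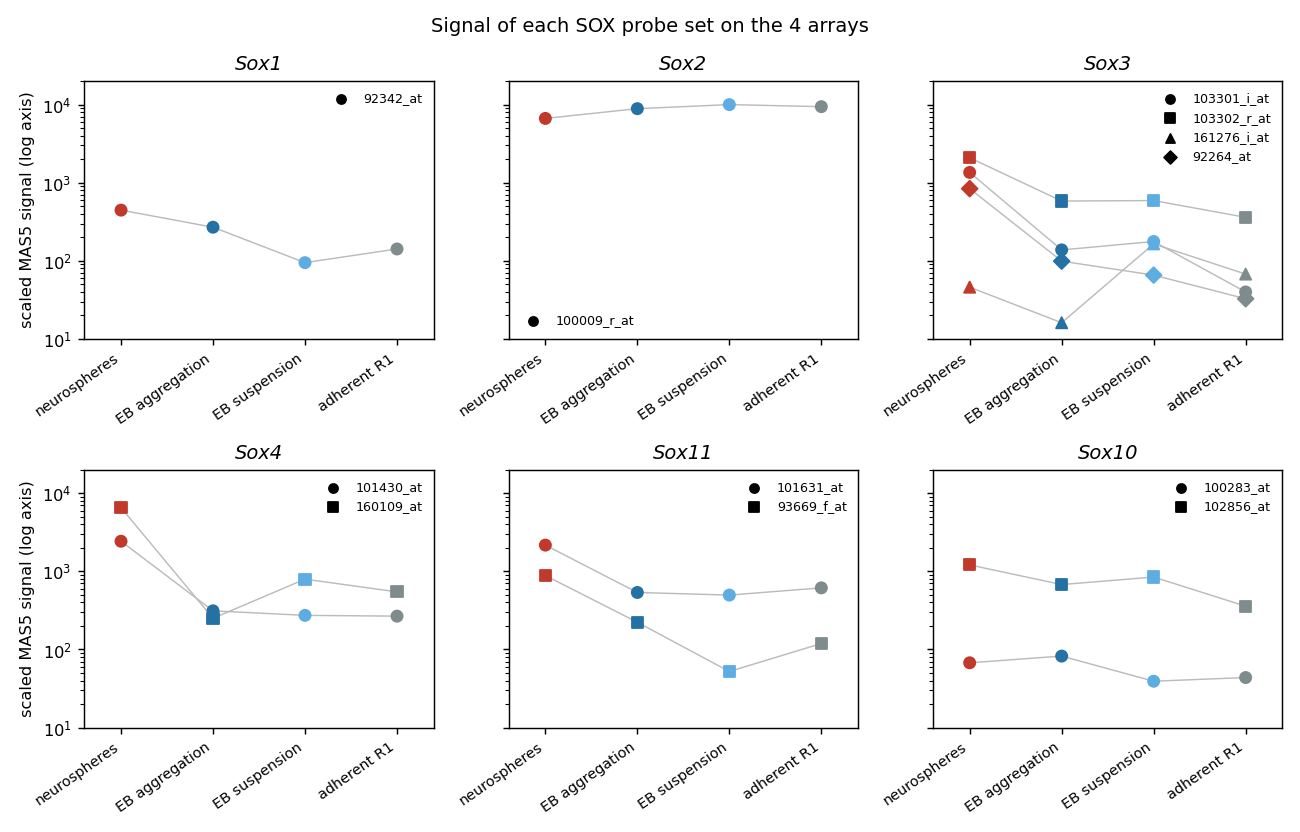
Scaled MAS5 signal (log axis) of each SOX probe set on the neurosphere array, the 2 embryoid body (EB) arrays and the adherent array, with 1 panel per gene and 1 marker shape per probe set; thin lines only join the points of a probe set. The neurosphere points of Sox4, Sox11 and 3 of the 4 Sox3 probe sets stand above all R1 points, while Sox2 lies between 6644 and 9981 on every array.

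Sox2, the SoxB1 gene shared by pluripotent and neural stem cells, was among the strongest signals on every array. Its only probe set, 100009_r_at, had a signal of 6644 in neurospheres, against 8859 in aggregation and 9981 in suspension bodies, and 9397 in adherent cells. It stood at percentile 98.6 of the neurosphere array and at 98.9, 99.0 and 99.1 of the aggregation, suspension and adherent arrays. The adherent value lay between those of the embryoid body arrays, which differed by 1.13-fold, and the neurosphere value lay below all 3. On the log2(signal + 32) scale, used for all differences, Sox2 was at -0.50 ± 0.26 (SE), with a 95% interval of -1.04 to 0.04 and an adjusted p of 0.191. With median scaling it passed the test (-0.75, adjusted p = 0.0452), and over all 13 alternatives it ranged between -0.75 and -0.46.

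Sox1, the SoxB1 gene tied most closely to the neural lineage, gave a moderate signal on its plain probe set 92342_at. The signal was 445 in neurospheres, against 269 in aggregation and 94.6 in suspension bodies, and 142 in adherent cells. The neurosphere array was the highest, at 1.65 times the aggregation array, but the 2 embryoid body arrays themselves stood 2.84-fold apart. The difference of 1.37 ± 0.71 (SE; 95% interval -0.10 to 2.85) did not pass limma's test (adjusted p = 0.188), nor did it under any of 13 alternatives.

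Sox3, the SoxB1 gene on the X chromosome, rose in neurospheres on its 3 tested probe sets. The brightest of them, 103302_r_at, had a signal of 2085 in neurospheres, against 582 in aggregation and 589.9 in suspension bodies, and 359.9 in adherent cells. Probe set 103301_i_at, designed from the same database sequence, had 1353 in neurospheres, against 138 in aggregation and 176 in suspension bodies, and 39.9 in adherent cells. The plain probe set 92264_at, designed from a different sequence, had 838 in neurospheres, against 98.9 in aggregation and 65.5 in suspension bodies, and 32.6 in adherent cells. In all 3 the neurosphere array stood clear of the R1 arrays, by 3.53-fold, 7.67-fold and 8.47-fold over the highest of them, and the adherent array was the lowest. The differences were 2.11 ± 0.38 (SE; adjusted p = 3.50e-04), 3.57 ± 0.67 (adjusted p = 4.37e-04) and 3.35 ± 0.84 (adjusted p = 0.00613) in that order.

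The remaining Sox3 probe set, 161276_i_at, did not share this pattern. Its signal was 45.9 in neurospheres, against 16.1 in aggregation and 164 in suspension bodies, and 67.5 in adherent cells, all below the median of their arrays. The embryoid body arrays enclosed the other two, and the aggregation value lay below the 10th percentile of its array. Fitted without the signal filter, it lay at -0.34 ± 0.78 (SE; adjusted p = 0.842).

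The SoxC genes Sox4 and Sox11 rose on both of their probe sets. For Sox4, probe set 160109_at had a signal of 6533 in neurospheres, against 251 in aggregation and 795 in suspension bodies, and 547 in adherent cells. Probe set 101430_at had 2429 in neurospheres, against 312 in aggregation and 273 in suspension bodies, and 267 in adherent cells. The neurosphere array was thus 8.22-fold and 7.78-fold above the highest R1 array on the 2 probe sets. The differences were 3.63 ± 0.45 (SE; adjusted p = 2.97e-06) and 2.98 ± 0.45 (adjusted p = 3.72e-05), and only 0.660% of the probe sets tested had a larger difference than the first.

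For Sox11, probe set 101631_at had a signal of 2168 in neurospheres, against 537 in aggregation and 497 in suspension bodies, and 615 in adherent cells. Probe set 93669_f_at had 884 in neurospheres, against 223 in aggregation and 52.3 in suspension bodies, and 119 in adherent cells. The R1 arrays kept within 1.24-fold of each other on the first probe set and spread over 4.27-fold on the second. The differences were 1.89 ± 0.37 (SE; adjusted p = 8.07e-04) and 2.62 ± 0.74 (adjusted p = 0.0139). The call of 93669_f_at ended without the signal filter (adjusted p = 0.0678).

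Beside these SoxC genes the array held 10 neuron markers. Of them, 4 were tested, 1 rose in neurospheres (Gap43) and 0 fell (8.09% and 11.6% over all tested), and their summed signal was 8183 in neurospheres against 3591 to 5287 on the R1 arrays. Tubb3, on an _f_at probe set, gave 5991 of that sum in neurospheres and 3069 to 4485 on the R1 arrays. Its own difference did not pass limma's test (0.70, adjusted p = 0.0650). Gap43 reached the median on the neurosphere array only, where it was high. The part of neurons in the SoxC result was not tested.

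Sox10 had the smallest rise, on 1 of its 2 probe sets. Probe set 102856_at had a signal of 1209.9 in neurospheres, against 678 in aggregation and 845 in suspension bodies, and 358 in adherent cells. The neurosphere array was 1.43-fold above the suspension array, and all 3 R1 arrays were themselves above their array's median, at percentiles 76.9, 81.2 and 63.9. The difference of 1.16 ± 0.39 (SE; adjusted p = 0.0380) ended as a call in 9 of 13 alternatives, among them all R1 arrays taken as 1 group (0.99), that 2-group fit without any 1 of them (0.65 to 1.24), and embryoid bodies alone (0.65). The dimmer probe set 100283_at had 67.5 in neurospheres, against 82.3 in aggregation and 39.2 in suspension bodies, and 43.7 in adherent cells, and it lay at 0.27 ± 0.55 (SE; adjusted p = 0.820) when fitted without the filter. Its neurosphere value fell within the R1 range.

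Markers of oligodendrocytes, which the labels name among the contaminating cells, were read beside Sox10. Of 7 on the array, 5 were tested, 1 rose (Nkx2-2) and 0 fell, against 8.09% and 11.6% of all tested, with a summed signal of 2384 in neurospheres against 768 to 1348 on the R1 arrays. Of 8 markers of neural crest and Schwann cells, 6 were tested, 1 rose (Ednrb) and 0 fell, with 1944 in neurospheres against 1192 to 1860.0 on the R1 arrays. Without Ednrb the sum was 1109 in neurospheres, below the 1169 to 1777 of the R1 arrays, and the median difference of the 8 markers was -0.28. Astrocytes are also named as contaminating cells. Of 10 astrocyte markers on the array 8 were tested, 3 rose and 0 fell, against 8.09% and 11.6% of all tested. Those that rose, named after their values were seen, were Aldoc, a glycolytic enzyme (4.34), Mt3, a metallothionein of brain (3.94), and Sparcl1 (3.89). Nkx2-2, Ednrb and Sparcl1 reached the median on the neurosphere array only, where they were high. Gfap, Aqp4 and Slc1a2 lay at 1.15, 1.66 and 1.28, Clu and Apoe lay at -1.18 and -0.32, and none of them passed. The summed astrocyte signal was 41822 in neurospheres against 24581 to 39617 on the R1 arrays. Apoe made up most of it, at 22420 in neurospheres and 22272 to 37420 on the R1 arrays. The part of the cells of these 3 lists in the SOX results was not tested.

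**Figure D2:**
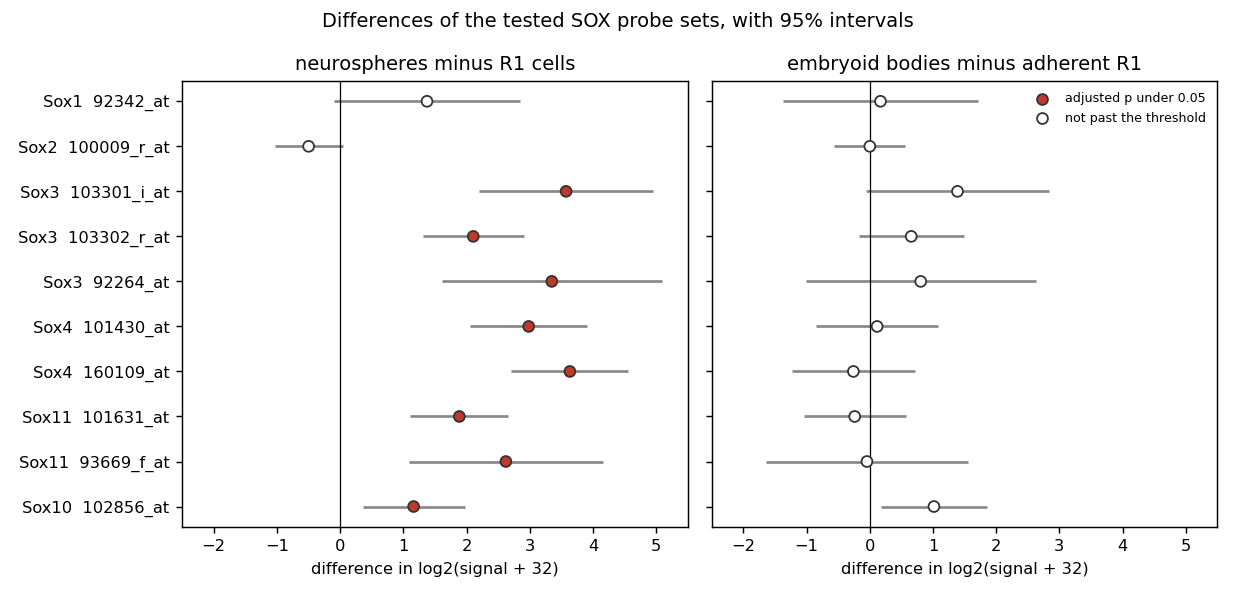
Differences in log2(signal + 32) with 95% intervals from limma for the 10 tested SOX probe sets, neurospheres minus R1 cells on the left and embryoid bodies minus adherent R1 cells on the right; red points have an adjusted p under 0.05. On the left 8 points are red, between 1.16 and 3.63, and Sox1 and Sox2 are open, while on the right all 10 are open.

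Without the intensity trend in limma's variance model, 3 of the 8 calls stayed past the threshold (Sox3 on 103301_i_at and 92264_at, and Sox4 on 101430_at). The other 5 then had adjusted p-values between 0.0526 and 0.154 with the same differences.

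Among R1 cells, culture as embryoid bodies or as an attached layer gave no SOX gene that passed the test. Of the 10 probe sets, 0 were called in limma's test, as against 0.261% higher and 0.0872% lower (0.349% in all) among the 8031, and 1 had an unadjusted p under 0.05, where 1103 of all probe sets did. That 1 was Sox10 on 102856_at, with a signal of 762 ± 119 in embryoid bodies (SD, n = 2) against 358 in adherent cells, a difference of 1.02 ± 0.41 (SE; 95% interval 0.17 to 1.86; adjusted p = 0.270). Over all probe sets, 21 were higher and 7 lower in embryoid bodies, but 40 were higher and 391 lower with median scaling.

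Sox2 was nearly level between the culture forms, at 9420.3 ± 793 in embryoid bodies (SD, n = 2) against 9397 in adherent cells. Its difference of 0.00 had a 95% interval of -0.56 to 0.56, and it lay at -0.37 with median scaling and -0.11 with quantile normalization. The intervals of the other genes were wider. Sox3 on 103301_i_at lay at 1.39 (95% interval -0.06 to 2.83), and its other tested probe sets at 0.66 and 0.81. Sox4 lay at 0.12 and -0.26, and Sox11 at -0.24 and -0.04. A missed threshold with intervals of this width does not show that the levels were alike.

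The aggregation and suspension arrays, 1 each, were compared by their values only. On 4 of the 12 probe sets they stood over 2.5-fold apart, 1 of them the dim 161276_i_at of Sox3, and for Sox4 and Sox11 the partner probe set did not share the gap. Sox4 on 160109_at was 3.17-fold higher in suspension, but 101430_at stood at 0.875 of the aggregation signal there. Sox11 on 93669_f_at was 4.27-fold higher in aggregation, but 101631_at was 1.08-fold higher. Sox1 was 2.84-fold higher in aggregation. For Sox2, Sox10 on 102856_at and Sox3 on 103302_r_at and 103301_i_at, suspension stood at 1.13, 1.25, 1.01 and 1.28 times aggregation. Other probe sets of these genes ran the other way, with Sox3 on 92264_at 1.51-fold and Sox10 on 100283_at 2.10-fold higher in aggregation.

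**Figure D3:**
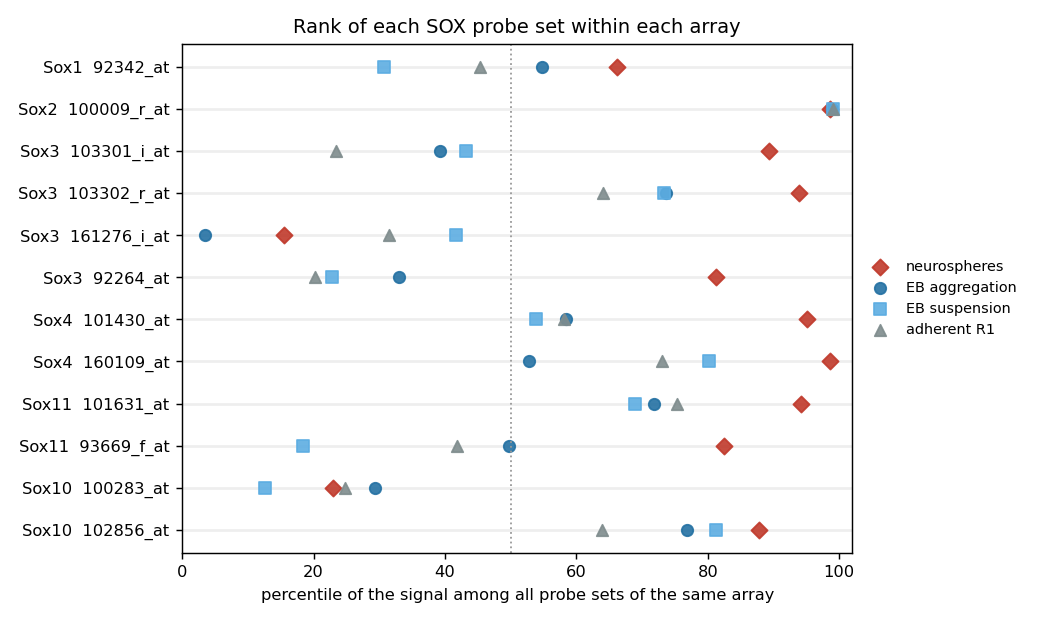
Percentile of each SOX probe set among all probe sets of the same array, with 1 symbol per array and a dotted line at the array median. Sox2 stands near the right edge on all 4 arrays, and Sox3 on 92264_at stands at 81.3 in neurospheres and between 20.3 and 33.0 on the R1 arrays.

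Within each array the SOX genes took different places. In neurospheres, Sox2, Sox4 on both probe sets, Sox11 on 101631_at and Sox3 on 103302_r_at stood between percentiles 93.8 and 98.6. On the R1 arrays Sox2 alone of these probe sets stood above percentile 90, and the next was Sox10 on 102856_at in suspension, at 81.2. These are ranks of probe set signals and do not order the transcripts themselves, since probe sets differ in how brightly they read their target.

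Genes with the profile most like each SOX gene over the 4 arrays were found by the Euclidean distance between log2 profiles centred on their mean, among 5974 other named genes. For Sox2 they were Calml4, A430005L14Rik and Nf2, the merlin tumour suppressor, at distances of 0.033 to 0.067. For Sox4 they were Scd2, a fatty acid desaturase, Dennd5a and Fbln2, a matrix protein of the fibulin family, at 0.274 to 0.412. Scd2 had a signal of 26437 in neurospheres, against 1058 in aggregation and 2651 in suspension bodies, and 1875 in adherent cells. For Sox3 they were Snapc2, Rassf2 and Gbp3 (0.052 to 0.111), for Sox11 Tyms-ps, Itpkb and Rtn3 (0.186 to 0.205), for Sox1 Cmc2, Stx6 and Npr3 (0.060 to 0.164), and for Sox10 Padi3, Acp5 and Hoxa9 (0.072 to 0.104). With 4 arrays many genes can come this close, and the distances only describe them.

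The array held 7 other SOX genes on 10 probe sets, of which 5 were tested, 0 rose and 1 fell in neurospheres, where 19.7% of all tested did either. Sox15, an ES cell SOX gene, fell, with a signal of 50.8 in neurospheres, against 388 in aggregation and 602 in suspension bodies, and 189 in adherent cells (-2.03 ± 0.64 SE, adjusted p = 0.0283). Its call ended without the signal filter (adjusted p = 0.0799), in 2-group fits without aggregation (-2.18) and without suspension (-1.88), and against the adherent array alone (-1.42). Sox6, singled out after its values were seen, is a SoxD gene whose 2 probe sets stayed below the median of every array. They had 233 and 161 in neurospheres, against 2.68 to 33.3 and 6.92 to 22.7 on the R1 arrays, and without the filter both passed the test (2.70, adjusted p = 0.00758, and 2.10, adjusted p = 0.0108). Sox5, the other SoxD gene read, lay at 1.61 (adjusted p = 0.237). With other HMG box genes added, 12 of 22 list genes were on the array and 9 were tested, with 0 higher and 2 lower, Tcf7l1 (-2.48) and Sox15. The median difference of these 12 was 0.41, against 0.16 over all probe sets.

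Of 16 partner factors of SOX proteins on the array, 14 were tested, 3 rose and 4 fell in neurospheres, against 8.09% and 11.6% of all tested, with a median of 1.06 over the 16. The falls were Pou5f1, which encodes Oct4 (-6.89), Klf4 (-5.45), Nanog (-5.16) and Sall4 (-5.01), all factors of pluripotent cells. Esrrb, another such factor, lay at -1.06 and did not pass (adjusted p = 0.120). A dimmer Klf4 probe set lay at -0.03. The 3 that rose, named after their values were seen, were the neural POU gene Pou3f3 (3.72 ± 0.80 SE, adjusted p = 0.00189), Nfib, a gene of glial development (2.84), and Tead2 (1.15). Pou3f3 had a signal of 1036 in neurospheres, against 95.8 in aggregation and 101 in suspension bodies, and 18.6 in adherent cells. Pou3f3 and Nfib reached the median on the neurosphere array only, where they were high. The neural POU genes Pou3f2, Pou3f4 and Pou3f1 lay at 1.40, 2.52 and 1.04 and did not pass (adjusted p = 0.214, 0.190 and 0.385), but Pou3f4 passed without the signal filter (adjusted p = 0.0117). The Tead2 call ended in 9 of 13 alternatives, among them all R1 arrays taken as 1 group (1.02) and median scaling (0.91).

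Known targets of Sox2 and Oct4 in ES cells fell together although Sox2 itself did not pass the test. Of 13 on the array, 12 were tested, 12 fell and 0 rose, against 11.6% and 8.09% of all tested, with a median of -4.46 over the 13. Of these, Pou5f1, Nanog, Zfp42, Utf1, Fgf4, Tdgf1, Dppa5a and Nr0b1 were also counted among the ES cell markers. Pou5f1 and Nanog were also counted among the partners, so these lists are not separate results. The leading falls were those of Nr0b1, a nuclear receptor of ES cells (-7.09), Pou5f1, Dppa5a (-6.53) and Nanog. Fgf4, a growth factor gene with a Sox2 and Oct4 enhancer that was named after its values were seen, had 640.1 in neurospheres, against 4364 in aggregation and 5628 in suspension bodies, and 4303 in adherent cells. Utf1, another such target named after its values were seen, had 397 in neurospheres, against 7939 in aggregation and 10264 in suspension bodies, and 5178 in adherent cells. Dimmer probe sets of Pou5f1 and Nr0b1 lay at 0.74 and -0.14. The call of Tdgf1 (-1.68) ended in a 2-group fit without suspension (-1.60), though not in that fit with all arrays.

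SoxB1 targets of neural progenitors rose in part. Of 15 on the array, 13 were tested, 6 rose and 0 fell, against 8.09% and 11.6% of all tested, with a median of 1.26 over the 15. Fabp7, a lipid-binding protein of radial glia, lay at 9.43, the nestin gene Nes at 3.99, the cyclin gene Ccnd1 at 3.50 and the Notch target Hes5 at 3.29. Fabp7 and Hes5 reached the median on the neurosphere array only, where they were high. Fabp7, Nes and Hes5 were also counted among the neural progenitor markers. Dimmer probe sets of Nes and Ccnd1 lay at 0.68 and 0.59. The other 2 that rose, named after their values were seen, were the growth factor receptor Egfr (2.04) and the Notch ligand Dll1 (1.88). Dimmer probe sets lay between 2.31 and 2.44 for Egfr and at 0.22 for Dll1. The call of Dll1 ended in a 2-group fit without suspension (1.45) and against the adherent array alone (1.43), and the Egfr call against embryoid bodies alone (1.51).

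Of 14 Sox9 targets of cartilage and glia on the array, 10 were tested, 1 rose and 0 fell, close to the 8.09% of all tested that rose (median 0.40 over the 14). It was Col9a3, a cartilage collagen chain (1.52, adjusted p = 0.00864), whose call ended with all R1 arrays taken as 1 group (1.30) and against embryoid bodies alone (0.85). A dimmer Col9a3 probe set lay at 0.02. Of 15 Sox10 targets on the array, 9 were tested, 2 rose and 0 fell (median 0.96 over the 15), namely Ednrb, the endothelin B receptor (3.77), and Nkx2-2, a factor of oligodendrocyte precursors (3.12). Both reached the median on the neurosphere array only, where they were high. Ednrb was also counted among the neural crest markers and Nkx2-2 among the oligodendrocyte markers. The Nkx2-2 call ended without the filter (adjusted p = 0.0643). The myelin gene Mbp lay at 1.18 and did not pass (adjusted p = 0.225), with a dimmer probe set at -0.30. Pdgfra, another target, lay at 0.96 and did not pass (adjusted p = 0.348), with dimmer probe sets between -0.31 and 3.24.

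Of 15 targets of Sox4 and Sox11 in new neurons on the array, 9 were tested, 3 rose and 2 fell, against 8.09% and 11.6% of all tested (median 0.27 over the 15). The growth cone gene Gap43 (2.11) and the adhesion gene Ncam1 (1.94) rose with Tead2, while the tubulin regulators Stmn2 (-1.92) and Stmn1 (-1.46) fell. Gap43 reached the median on the neurosphere array only, where it was high. It was also counted among the neuron markers, and Tead2 among the partners. The neuronal genes Dcx and Map2 lay at 2.07 and 3.27 and missed the threshold (adjusted p = 0.0586 and 0.0517), which Map2 passed without the filter (adjusted p = 0.00727), and Tubb3, which Sox4 and Sox11 are known to activate, lay at 0.70 (adjusted p = 0.0650). The calls of Gap43 and Stmn1 ended in 2-group fits without aggregation (1.94 and -1.39) and without suspension (2.27 and -1.53), though not in that fit with all arrays. Without the intensity trend, the calls of Nes, Egfr, Dll1, Col9a3, Nkx2-2, Gap43, Ncam1, Stmn1, Stmn2, Tead2, Tdgf1 and Sox15 ended, with adjusted p-values between 0.0603 and 0.189. The dimmer probe sets of Stmn2 lay between -3.26 and 1.36, that of Stmn1 at 0.52 and that of Tubb3 at -1.48. Those of Ncam1 lay at 0.72 and 0.79.

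**Figure D4:**
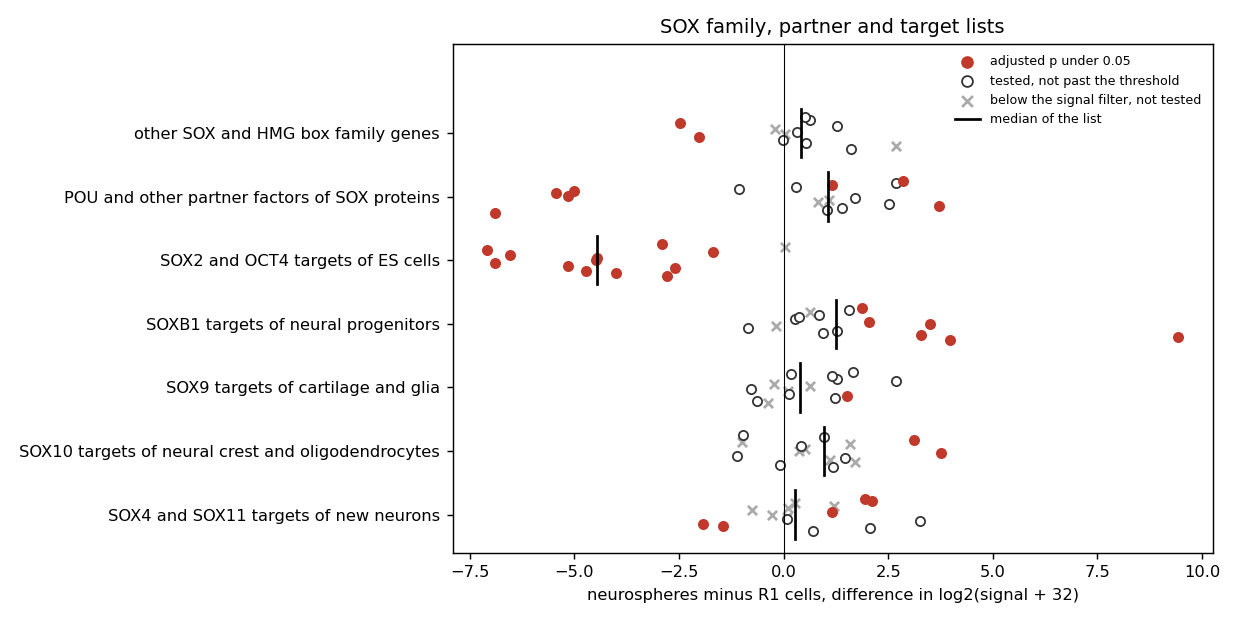
Differences in log2(signal + 32), neurospheres minus R1 cells, for the genes of 7 lists tied to SOX proteins, 1 symbol per gene by its brightest probe set; red points have an adjusted p under 0.05, crosses were not tested, and bars mark list medians over all genes on the array. The Sox2 and Oct4 targets of ES cells lie far to the left, with a median of -4.46, while Fabp7 stands alone at 9.43.

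In embryoid bodies against adherent cells, 0 genes of any of these 7 lists passed limma's test. With median scaling 1 did, Nr0b1, which was lower in embryoid bodies (-1.07, adjusted p = 0.0302). An unadjusted p under 0.05 was reached by 2 of 9 tested SOX and HMG box genes and 1 of 14 partners. It was also reached by 4 of 12 targets of Sox2 and Oct4, 1 of 13 SoxB1 targets and 2 of 10 Sox9 targets. In each of the other 2 lists 0 of 9 reached it, and over all probe sets tested 1103 of 8031 did.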

How the data were processed

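The authors deposited 1 table of linear signal intensity per probe set, made with MAS5 per the submitters' processing notes; its version, scaling target and settings are not stated in the sources used. The deposited trimmed means were 29.9 for neurospheres, 33.0 and 1501 for embryoid bodies and 1501 for adherent cells, so all arrays were brought to a common trimmed mean of 500 with 2% left out at each end, after 66 control probe sets were removed from 12488. Of the other 12422, 10833 were paired with 1 gene, 396 with several and 1193 with none. The 12 SOX probe sets matched RefSeq gene identifiers. After 32 was added and log2 taken, which understates changes of dim probe sets, the 8031 probe sets at or above the median of at least 1 array were fitted with limma 3.58.1 (R 4.3.3) as 3 groups, with an intensity trend in the variance prior. Only the 2 embryoid body arrays left a residual degree of freedom (1), to which the prior added 20.46. The neurosphere array was set against R1 cells, with the embryoid body mean and adherent value weighted equally, and embryoid bodies with adherent cells. Tests were two-sided with Benjamini-Hochberg adjustment over all probe sets. The number of arrays limits the precision, and the code was tested on simulated data.

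The SOX genes, the lists and the tests were chosen with earlier results of these data known. Every SOX probe set was described. From each list, up to 4 called genes were named by size, using each gene's brightest probe set, and for each SOX gene the 3 genes with the nearest profile. Alternatives changed the added value, the filter, the scaling, the trend, the number of probe sets per gene, the R1 group compared, and the arrays included.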

Additional observations from a re-analysis of the deposited data

How the results depend on the processing

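Without the intensity trend, 218 probe sets were higher and 237 lower in neurospheres, and 3 SOX probe sets were higher. With 1 probe set per gene, 4 SOX probe sets were higher, since 4 genes were then read once each. With median scaling 1 SOX probe set was lower, that of Sox2. With all R1 arrays taken as 1 group, 436 were higher and 642 lower. Such 2-group fits that left out 1 R1 array gave 315, 378 and 588 higher and 460, 515 and 731 lower over all probe sets (without aggregation, suspension and the adherent array in that order), with 7 SOX probe sets higher and 0 lower each time. In embryoid bodies against adherent cells, median scaling gave 40 higher and 391 lower, and quantile normalization gave 2 lower. Limma called 0 either way without the filter and 0 either way without the trend, where 1272 of 12422 and 781 of 8031 had an unadjusted p under 0.05. No SOX probe set passed in this comparison under any of the 7 tested alternatives. Several uncalled differences there changed sign: Sox1 lay at -0.14 and Sox2 at -0.37 with median scaling, where Sox4 on 101430_at lay at -0.22. With quantile normalization these 3 lay at -0.17, -0.11 and -0.10, and with 100 added Sox11 on 93669_f_at lay at 0.02. With 1 embryoid body array left out, a value with no test, Sox4 on 160109_at lay at 0.52 without aggregation and -1.03 without suspension, Sox11 on 93669_f_at at -0.84 and 0.75, Sox1 at -0.45 and 0.79, and Sox2 at 0.09 and -0.08. The cause of these shifts was not tested. No paired analysis was possible because the labels number no replicates across the groups. No detection calls were used, and precision is limited by 1 residual degree of freedom.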
